A study of Mus musculus with 2 samples.

Results

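The bodies of protein-coding autosomal genes that span over 300 kb were examined in ATAC-seq data of mouse neural retina. A gene was taken when its end minus its start in the GRCm38 gene table exceeded 300000 bp, and its body was the span without 1 kb at each end. This rule, which uses no measured value, took 533 of 20665 genes, and their bodies covered 303 Mb, or 12.5% of the autosomes. The shortest member spanned 300243 bp and the longest gene just outside spanned 299083 bp. The 5 members nearest the limit had medians of 3.43 insertions per kb in the wild-type library and 3.27 in the knockout library, and the 5 genes just outside had 3.85 and 3.27. Because 9 members overlap another member (for example Itgbl1 with Fgf14 and Runx2 with Supt3), a few stretches were counted in more than 1 body. The bodies were set beside those of 2412 genes that span 50 to 100 kb.

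In ATAC-seq the Tn5 transposase inserts sequencing adapters into DNA that is not covered by nucleosomes or other proteins, so promoters and enhancers gather many insertions and closed chromatin gathers few. The body of a very long gene is almost wholly intron, and its introns can hold enhancers and further transcription starts. Many very long genes are neuronal: they encode adhesion molecules, receptors, ion channels and synaptic scaffolds. In the retina, genes of this size also include several that photoreceptors need, such as Rims2 of the ribbon synapse, and transcription factors of photoreceptor differentiation, such as Thrb and Rora.

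One library came from adult wild-type C57BL/6 mice and 1 from adult C57BL/6 littermates carrying a knockout of Gabra3, a GABA-A receptor subunit gene (alpha 3); nothing else differs between the groups per the labels. The question named for the series is how DNA accessibility differs between these genotypes. Each library was made from 20000 nuclei of flash-frozen neural retina and read as 75 bp single ends. The sources used here do not say how the allele was made or how many animals gave tissue. With 1 library per genotype, each ratio below compares those libraries and not the conditions, and no test or p-value was computed. Intervals are exact 95% (Clopper-Pearson) intervals that cover counting error only.

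The wild-type library held 7462427 autosomal insertions and the knockout library 7475033, a mean of 3.11 per kb of autosome in each. Outside genes the means were 1.93 and 1.94 per kb. Of the autosomal insertions, 19.6% and 18.8% lay in the 36202 open regions called on the summed libraries. The body of Gabra3, on chromosome X and not a member, held 121 wild-type and 120 knockout insertions (log2 ratio -0.01, -0.39 to 0.36). How the allele was made is not stated, so these counts cannot check the label. Promoters of 6 rod markers had medians of 97.5 and 83.5 insertions within 500 bp, those of 9 liver, muscle and skin genes had 2 and 5, and the cone, bipolar, amacrine with ganglion, and Muller glia lists lay between, at 9 to 16.5. The tissue is a mixture, and a larger share of cells with an open site cannot be told apart from a more open site in each cell.

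Long genes can hold transcription starts far inside the body, and 3 genes show what such a start can look like beside the start at the outer end. The promoter table (RefSeq, GRCm38.p6) matched 405 members with 605 starts. Of these starts, 277 lay inside the bodies of 181 members. Inside here means over 1 kb from the ends of the gene, so not all of them lie far inside. The 250 letters before each start follow, 5′ to 3′ on the strand of the gene, with every CG dinucleotide in capitals. They were chosen after their values were seen, because the inside start was more open than the outer one.
Hdac9 outer start: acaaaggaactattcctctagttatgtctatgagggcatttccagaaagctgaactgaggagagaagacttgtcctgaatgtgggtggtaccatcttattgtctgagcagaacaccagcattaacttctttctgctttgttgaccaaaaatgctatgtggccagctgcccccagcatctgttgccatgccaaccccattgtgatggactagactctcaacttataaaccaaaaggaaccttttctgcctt
Hdac9 inside start: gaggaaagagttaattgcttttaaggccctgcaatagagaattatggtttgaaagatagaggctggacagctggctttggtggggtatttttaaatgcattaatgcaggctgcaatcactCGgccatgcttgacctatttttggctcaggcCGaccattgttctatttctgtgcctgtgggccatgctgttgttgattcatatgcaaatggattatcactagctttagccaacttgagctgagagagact
Esrrg outer start: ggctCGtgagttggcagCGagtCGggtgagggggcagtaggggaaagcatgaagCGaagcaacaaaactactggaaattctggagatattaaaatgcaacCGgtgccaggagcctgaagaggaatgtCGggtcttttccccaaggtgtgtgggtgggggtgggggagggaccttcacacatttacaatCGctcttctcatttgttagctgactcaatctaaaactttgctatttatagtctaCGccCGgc
Esrrg inside start: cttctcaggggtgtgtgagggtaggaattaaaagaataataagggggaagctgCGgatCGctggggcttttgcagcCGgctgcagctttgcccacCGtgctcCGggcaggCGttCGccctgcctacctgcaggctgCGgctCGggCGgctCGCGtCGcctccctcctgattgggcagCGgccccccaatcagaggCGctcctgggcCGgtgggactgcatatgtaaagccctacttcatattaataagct
Celf2 outer start: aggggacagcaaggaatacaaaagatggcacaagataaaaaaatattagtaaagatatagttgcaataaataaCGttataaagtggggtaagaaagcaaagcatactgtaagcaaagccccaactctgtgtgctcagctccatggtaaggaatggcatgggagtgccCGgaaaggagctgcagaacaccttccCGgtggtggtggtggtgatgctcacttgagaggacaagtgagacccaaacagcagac
Celf2 inside start: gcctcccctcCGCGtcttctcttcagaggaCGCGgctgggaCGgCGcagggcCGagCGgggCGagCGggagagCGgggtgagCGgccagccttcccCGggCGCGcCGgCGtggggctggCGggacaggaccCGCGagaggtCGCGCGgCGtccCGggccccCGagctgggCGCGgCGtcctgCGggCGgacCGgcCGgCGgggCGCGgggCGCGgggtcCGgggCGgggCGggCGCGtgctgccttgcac

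Hdac9 encodes a histone deacetylase that represses transcription. Its outer start (chr12:34917096-34917345, minus strand) had 1 wild-type and 3 knockout insertions within 500 bp and no CG in these letters. The inside start, 388 kb along the gene (chr12:34528890-34529139), had 75 and 57 insertions and 2 CG. Esrrg encodes an orphan nuclear receptor. Its outer start (chr1:187608756-187609005, plus strand) had 9 and 13 insertions with 9 CG, and the start 389 kb inside (chr1:187997577-187997826) had 107 and 90 with 16 CG. Celf2 encodes a splicing regulator. Its outer start (chr2:7396199-7396448, minus strand) had 9 and 12 insertions with 3 CG, and the start 524 kb inside (chr2:6872036-6872285) had 65 and 69 with 43 CG. In each pair both libraries ranked the inside start above the outer one, which follows from how the pairs were chosen.

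Over all the listed starts of long genes, inside starts were at the median less open than outer ones. The 277 inside starts had medians of 9 wild-type and 7 knockout insertions within 500 bp, and 158 of them had under 20 summed over both libraries. These medians lie above the level of the long bodies, whose medians were 2.05 and 1.98 insertions per kb. Some listed starts lie so close together that they share insertions, and each was counted. The 309 starts at the outer end had medians of 23 and 21, and 88 had under 20. At least 100 insertions were found at 28 inside and 90 outer starts. The 28 include starts near the outer end, such as those of Thrb (1.74 kb in) and Dis3l2 (1.88 kb in). Those 28 inside starts had a median of 18 CG in the 250 letters, against 4 for the inside starts with under 20 insertions; the corresponding outer starts had 20.5 and 6. All 32851 starts of the table had a median of 6 CG. The letters TAATCC, the core bound by the photoreceptor factor CRX, were looked for on both strands: they occurred before 5.05% of the inside starts, 3.56% of the outer starts and 6.25% of all starts. One of the printed sequences holds them, that of the inside start of Hdac9, on the strand opposite the gene.

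Several other starts far inside long genes were open. Frmd4b, which encodes a scaffold protein, had 118 wild-type and 113 knockout insertions at a start 130 kb inside. Sorbs2, an adaptor of the actin cytoskeleton, had 89 and 82 at 120 kb, and Ntm, the adhesion gene neurotrimin, had 75 and 75 at 551 kb. Rarb, a retinoic acid receptor gene, had 62 and 86 at 507 kb, and Pcdh15, a protocadherin gene of Usher syndrome, had 62 and 66 at 726 kb. These genes were picked from many starts after their values were seen.

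Long bodies carried fewer insertions per kb than shorter ones. Their median was 2.05 insertions per kb in the wild-type library (quartiles 1.50 to 3.76) and 1.98 in the knockout library (1.44 to 3.69). Bodies of 50 to 100 kb had medians of 3.62 (2.39 to 5.24) and 3.72 (2.41 to 5.46), so the long bodies stood at 0.565 and 0.532 of that level. Both libraries thus gave nearly the same gap, and the quartile ranges of the length classes overlapped. Under 2 insertions per kb were found in 257 wild-type (48.2%) and 270 knockout (50.7%) long bodies, against 444 (18.4%) and 434 (18.0%) of the 50 to 100 kb bodies. Over 4 per kb were found in 119 (22.3%) and 118 (22.1%), against 1046 (43.4%) and 1098 (45.5%).

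The level fell step by step with length. Medians were 4.10 wild-type and 4.21 knockout insertions per kb for genes of 4 to 20 kb, 3.48 and 3.56 for 100 to 200 kb, and 3.06 and 3.08 for 200 to 300 kb. Within the members they were 2.43 and 2.29 for the 317 genes of 300 to 500 kb, 1.93 and 1.88 for the 161 of 500 to 1000 kb, and 1.50 and 1.43 for the 55 over 1000 kb. In neither library did a body over 1000 kb exceed 4 insertions per kb. Genes are not replicates, so these medians describe the 2 libraries and carry no test.

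**Figure D1:**
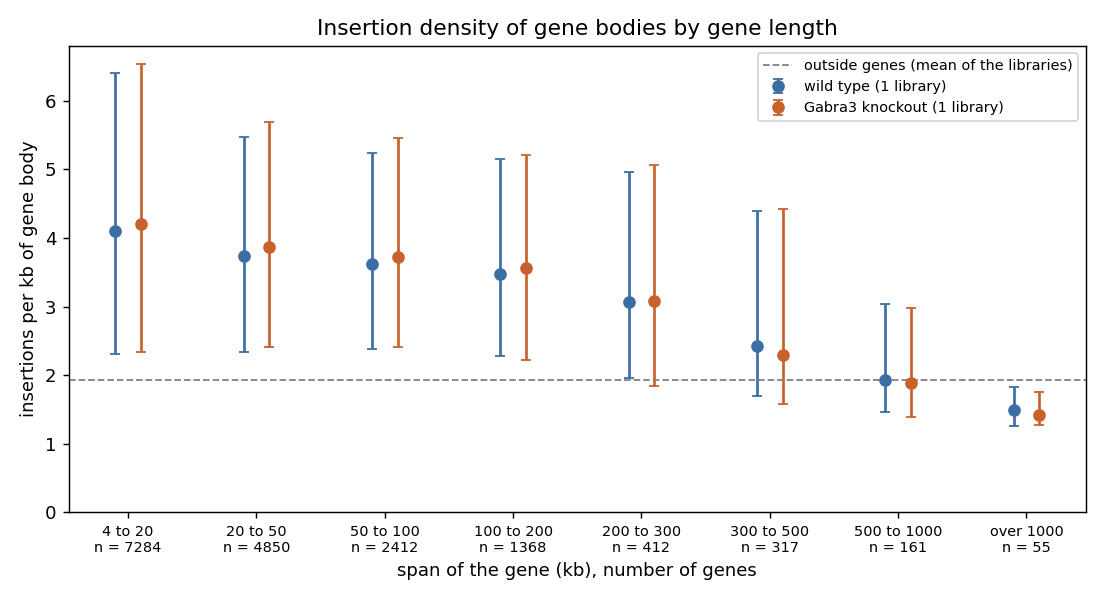
Insertions per kb of gene body (vertical axis) for protein-coding autosomal genes grouped by span in kb (horizontal axis), with wild type in blue and Gabra3 knockout in orange. Points are medians over genes, bars are quartiles over genes and not replicate errors, and the dashed line is the level outside genes; the medians descend from 4.10 and 4.21 for the shortest group to 1.50 and 1.43 for genes over 1000 kb.

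The surroundings of the long genes were sparse as well. In the 100 kb on each side, starting 10 kb away, the median was 2.18 wild-type and 2.14 knockout insertions per kb, against 4.61 and 4.66 around genes of 50 to 100 kb. The ratio of a body to its own surroundings had a median of 1.05 and 1.02 for long genes and 0.848 and 0.865 for the shorter class. Across the 533 members, the density of the body ran with that of its surroundings (Spearman correlation 0.79), with the number of open regions per Mb (0.78) and against the share of reads with mapping quality under 10 (-0.72), and weakly against span (-0.28). These correlations are over genes that share the 2 libraries and, in part, neighbourhoods. The open regions were called on the same insertions that give the density, so the correlation with them is in part built in. Reads with mapping quality under 10 made up a median of 3.33% and 3.68% of the reads in long bodies against 1.46% and 1.42% in the shorter class. Among genes with under 5% of such reads, chosen after seeing the data, the long bodies stood at 0.690 and 0.646 of the shorter ones.

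Gse1, a gene linked to the CoREST repressor complex, was the densest member in both libraries, with 4587 wild-type and 4464 knockout insertions, or 13.1 and 12.7 per kb. It also held the most open regions, 33, or 94 per Mb, and 23.7% and 23.9% of its insertions lay in them. The others at the top were Cdh4, a retinal cadherin gene (8.95 and 9.24 per kb), Sorcs2, a sortilin-family receptor gene (9.0 and 9.03), Rbfox3, which encodes the neuronal nuclear antigen NeuN (8.77 and 8.99), Mad1l1, a spindle checkpoint gene (8.33 and 8.79), and Camta1, a transcriptional activator gene (8.11 and 8.36). Density and open regions did not always go together: in Sorcs2 5 open regions held 1.55% and 2.19% of the insertions, and outside them the body still had 8.90 and 8.86 per kb. Nedd4l, a ubiquitin ligase gene (48.3 regions per Mb), Zfp536, a repressor of neuronal differentiation (46.3), and Jazf1 (43.5) followed Gse1 in open regions per Mb, at 6.28 to 7.02 insertions per kb over both libraries.

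The 6 members with fewest insertions held no open region. Zfp993, a zinc finger gene of a repeated cluster on chromosome 4, had 143 wild-type and 144 knockout insertions, 0.30 per kb in each, and 74.8% and 73.8% of its reads had mapping quality under 10, so its level is a lower limit. Skint6 and Skint5, members of a family expressed in skin and thymus epithelium, had 0.85 and 0.85, and 0.94 and 0.89 per kb, with 20.9% to 21.9% and 14% to 14.6% of such reads. Itgbl1, an integrin beta-like gene, had 260 insertions in each library (0.82 per kb). Gucy1a2, a subunit gene of soluble guanylate cyclase, had 372 and 334 (1.0 and 0.90), and Iqcm had 498 and 528 (0.93 and 0.99).

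The 6 longest members spanned 1973 to 2271 kb and had from 1.15 to 3.89 insertions per kb in the libraries. Ptprd, a receptor phosphatase gene of synapse formation (chr4:75941237-78211742), had 3396 wild-type and 3191 knockout insertions, 1.50 and 1.41 per kb. The adhesion genes Cntnap2 (1.255 and 1.207) and Lsamp (1.31 and 1.15) and the receptor gene Lrp1b (1.26 and 1.2) lay below it. Macrod2, an ADP-ribose hydrolase gene, had 2.67 and 2.54, and Dlg2, a postsynaptic scaffold gene, had 3.80 and 3.89, above the mean of the autosomes although it spans 1973 kb.

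One member owed its level to 1 short region. Myo3a, the class III myosin gene of hearing loss that is also expressed in retina, had 5.2 wild-type and 5.13 knockout insertions per kb. A region of 2150 bp (chr2:22588451-22590600) held 87.7% and 86.1% of them, 1772 and 1717 insertions. It took 30887 wild-type and 24129 knockout reads of any mapping quality, with 16.5 and 13.3 well placed reads per used position, and 93.9% and 92.5% of its well placed reads repeated a position and strand. Without the region Myo3a had 0.644 and 0.717 per kb of the remaining body, below every other member except Zfp993. That length still includes a stretch of 119 kb without reads, 30.6% of the body, which lowers both values and the rank. What the region is was not tested. Below, values that rest on it are also given without Myo3a.

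Grouped by function, the long genes of photoreceptors and hair cells were dense and those of adhesion, guidance and glutamate receptors were sparse. A gene is called below the median here by both libraries summed. The groups are 12 lists that together hold 233 members, with some genes in more than 1. The other 300 members were in none. The lists also differ in span, and density fell with span. Median spans ran from 439 kb for the channels to 1055 kb for the giant receptors and fragile-site genes. They were 833 kb for adhesion, 575 kb for guidance, 460 kb for glutamate receptors and 512 kb for the Usher and photoreceptor-disease list. The part of span in the differences between lists was not tested. All 8 members of the Usher and photoreceptor-disease list lay above the median of all long bodies in both libraries, at list medians of 4.65 wild-type and 4.75 knockout insertions per kb; with the region in Myo3a left out, 7 of 8 lay above and the medians were 4.18 and 4.2. Adgrv1, which encodes a giant adhesion receptor, had 3.64 and 3.80. The tip-link genes Cdh23 and Pcdh15 had 5.95 and 7.01, and 3.80 and 3.69. Rims2, an active-zone gene of the ribbon synapse, had 4.74 and 4.59, Vps13b, the Cohen syndrome gene, had 4.56 and 4.91, and Bbs9, a BBSome subunit gene, was lowest at 3.45 and 3.68.

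Synaptic scaffolds and transcription factors also leaned to the dense side. Of 23 scaffold genes, 7 lay below the median of all long bodies (list medians 3.09 and 3.16 per kb). They ranged from Sntg1, a syntrophin gene (1.32 and 1.34), to Pard3, the polarity gene (5.93 and 6.04). Of 33 transcription and chromatin genes, 10 lay below (2.65 and 2.56), from Foxp2 (1.40 and 1.42) to Gse1. Thrb, the thyroid hormone receptor gene of cone opsin patterning, had 5.88 and 5.81 per kb, Rora, a nuclear receptor gene, 4.94 and 4.87, and Esrrg 5.04 and 5.10. Of 26 genes of cyclic nucleotide, kinase and lipid signalling, 10 lay below (2.47 and 2.24), from Dock2, an exchange factor of immune cells (1.26 and 1.09), to the kinase gene Prkce (8.07 and 8.10). The 30 channel genes were near the median, with 14 below (2.11 and 1.92), from the sodium leak channel Nalcn (1.12 and 1.23) to the calcium-release channel Itpr2 (7.60 and 7.66).

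Among 40 adhesion genes, 26 lay below the median (list medians 1.62 and 1.51 per kb). They ranged from Cntnap5c, a contactin-associated gene (1.06 and 1.1), to Dscaml1, which guides spacing of retinal neurons (7.18 and 7.04); its homologue Dscam had 3.38 and 3.03. Of 24 genes of axon guidance and trophic signalling, 19 lay below (1.80 and 1.62), from the fibroblast growth factor Fgf14 (1.08 and 1.12) to the receptor kinase Alk (3.52 and 3.39). Of 13 glutamate receptor genes, 10 lay below (1.45 and 1.46), from Grm5 (1.2 and 1.24) to Grm8 (2.89 and 2.99), both metabotropic receptors. The cadherins had 7 of 10 below (1.6 and 1.57), although Cdh4 and Cdh23 are among them, with Cdh8 lowest (1.23 and 1.19). The giant receptors and fragile-site genes had 13 of 19 below (1.77 and 1.65), from the sarcoglycan Sgcd (0.97 and 1.02) to the oxidoreductase Wwox (4.52 and 4.33). In the 4 genes of GABA receptors and inhibitory scaffold, Gabbr2, a GABA-B subunit, had 4.02 and 4.07 and Gabrg3, a GABA-A subunit, 1.49 and 1.31. The 6 genes of RNA-binding proteins spread from Rbms3 (1.24 and 1.32) to Rbfox3. No list was set apart by a test.

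**Figure D2:**
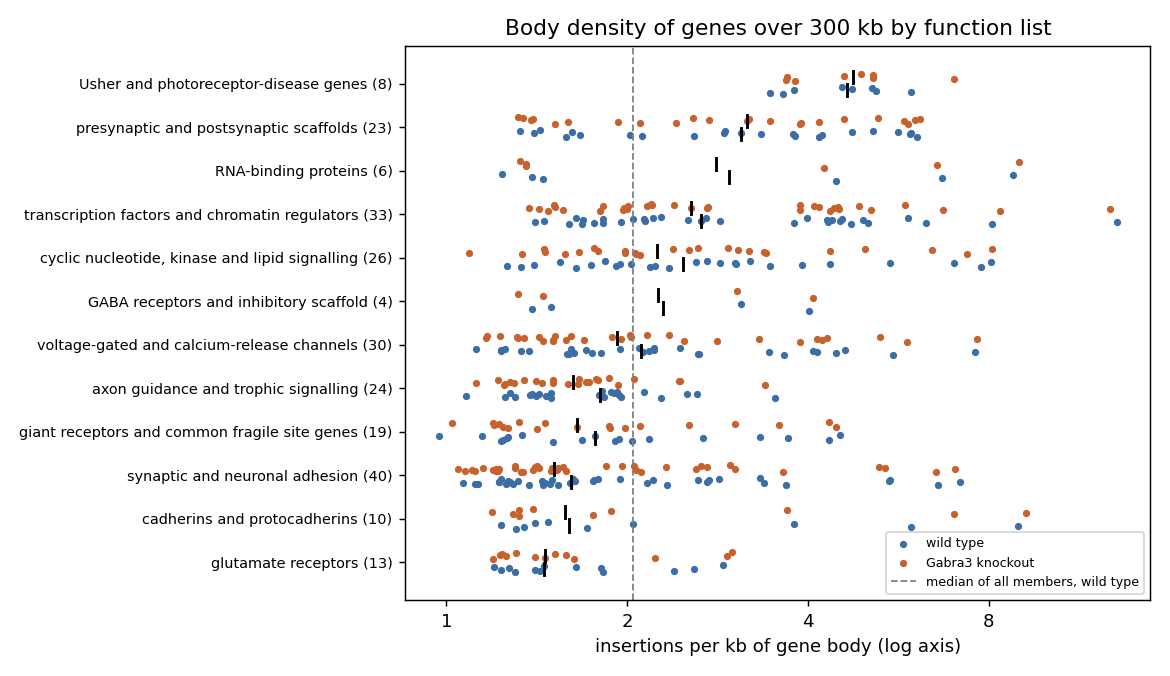
Insertions per kb of gene body on a log axis for members of each function list (number of members in brackets), with 1 blue point per gene for wild type and 1 orange point for Gabra3 knockout. Black ticks are list medians and the dashed line is the median of all 533 members in the wild-type library; the Usher and photoreceptor-disease genes lie to its right, Myo3a (5.2 and 5.13) through 1 region only.

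Open regions were fewer per Mb in long bodies than in shorter ones, but not at every matched density. There were 2829, or 9.34 per Mb, against 17.6 per Mb in bodies of 50 to 100 kb, a ratio of 0.530. They held 6.16% of the wild-type and 5.78% of the knockout insertions of long bodies, against 11.6% and 10.9% in the shorter class. With open regions left out, the median density was still 1.94 and 1.88 per kb in long bodies and 3.33 and 3.45 in the shorter ones, so most of the gap between length classes lay outside open regions. A typical region in a long body was weak, with medians of 10 wild-type and 8 knockout insertions over 350 bp. Because of their size, 493 of the 533 long bodies held at least 1 region, and 40 (7.50%) held none.

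Strong regions inside long genes lay mostly away from listed starts. Of 132 regions with at least 100 insertions summed, 94 lay over 500 bp from every start of the table, which is not complete. Among these 94, outside Myo3a, the strongest lay in Arhgap26, a GTPase regulator gene, with 232 wild-type and 246 knockout insertions, 392 kb from the start. The next of the 94, in Camta1 (chr4:151107701-151108950) and 753 kb from the start, had 184 wild-type and 186 knockout insertions. A region in Rora (chr9:69289401-69290500), 637 kb from the start, had 169 and 154, and a region in Pcdh15 (chr10:73700601-73701450), 605 kb from the start, had 94 and 91. Btbd9 had one of 145 and 147, and Akap6, an anchoring protein gene, one of 142 and 115. These regions were picked after their values were seen, and the libraries were not compared over them.

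**Figure D3:**
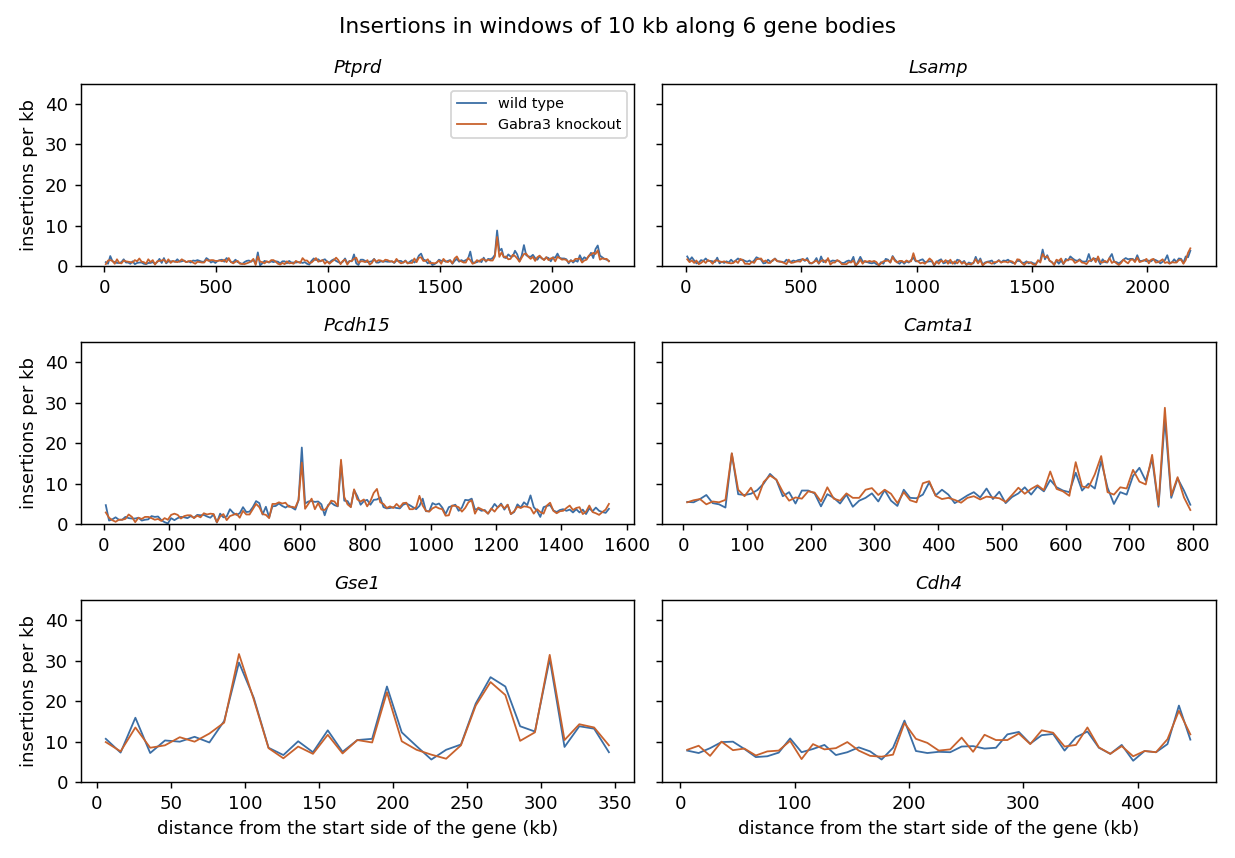
Insertions per kb in windows of 10 kb (vertical axis, same scale in each panel) against distance from the start side of the gene in kb for 6 members, wild type in blue and Gabra3 knockout in orange. Ptprd and Lsamp stay below 9 per kb, while Gse1 reaches 30.4 and 31.6 and Camta1 26.0 and 28.7; the libraries rise at the same places.

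Along the body the level was nearly flat. The 529 members with a known orientation were divided into 10 equal parts from the start side. The part nearest the start had a mean of 3.09 wild-type and 3.04 knockout insertions per kb, 1.13 and 1.14 times the middle of the body. The part at the far end had 3.01 and 2.99, or 2.93 and 2.91 without Myo3a, whose strong region lies there. In genes of 50 to 100 kb the part nearest the start stood 1.51 and 1.50 times above the middle. A higher level near the start was thus short in absolute length: from 1 to 5 kb inside the start the mean was 6.04 and 5.95 per kb, from 5 to 10 kb it was 3.21 and 3.09, and from 10 to 20 kb it had reached 2.81 and 2.80. At the other end, 1 to 5 kb inside, it was 3.07 and 3.10. Orientation came from the promoter table for 405 members and from the end with more insertions for 124, which favours a high start by construction in those; where both could be read, the busier end was the annotated start in 251 of 255.

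**Figure D4:**
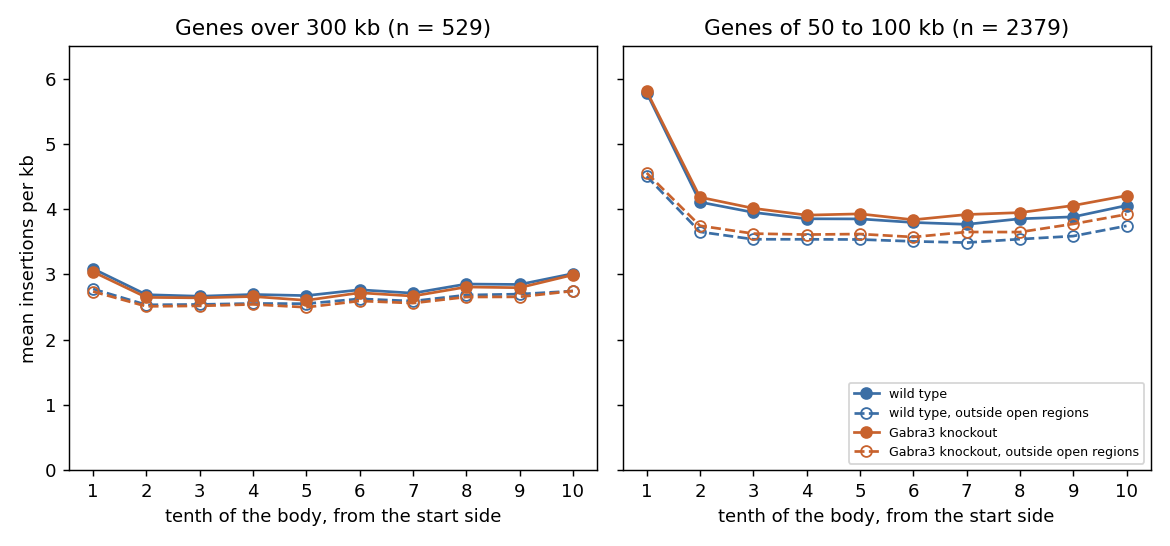
Mean insertions per kb (vertical axis) in each of 10 equal parts of the gene body, numbered from the start side, for genes over 300 kb (left) and of 50 to 100 kb (right). Filled points are all insertions and open points leave out open regions; the long genes begin at 3.09 and 3.04 and stay near 2.7 through the middle, and the shorter genes begin at 5.78 and 5.81.

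Pooled over all windows, the level within genes was uneven beyond counting. In 30013 windows of 10 kb, the median window held 36 insertions summed over both libraries, and the coefficient of variation within a gene had a median of 34.9%. Differences between genes made up 49.4% of the variance over windows and differences within genes 50.6%, of which counting alone gives 2.33% of the total; without Myo3a, whose window of 3513 insertions is the highest, the shares were 60.5% and 39.5%. The share that counting gives is pooled over all windows and was not computed gene by gene. Over 100 insertions were found in 2926 windows (9.75%) of 250 genes. The evenest body was that of Plce1, a phospholipase C gene (16.4%).

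Some long genes had wide stretches with no counted insertion in either library. The longest gap of a member had a median of 6.70 kb and exceeded 20 kb in 8 members. In Dock2 it spanned 138 kb (chr11:34544196-34681907, 24.8% of the body), where the rest of the body would have predicted 231 wild-type and 199 knockout insertions. There were no reads of any mapping quality in this stretch in either library, nor in the gaps of Myo3a (119 kb) and Maml2 (91.1 kb). Without its gap Dock2 had 1.68 and 1.45 insertions per kb. In Zfp993 the longest gap, 141 kb, did hold reads, 50 and 62, all with mapping quality under 10. What the stretches without reads are was not tested.

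Set against shorter bodies, long bodies had slightly fewer insertions in the knockout library. Summed over all members, the wild-type library held 772554 insertions and the knockout library 757566. With all autosomal insertions as the scale, log2 of knockout over wild type was -0.03 (-0.04 to -0.03); scaled to insertions in open regions each log2 ratio is 0.06 higher, and this one turned to 0.03. The median over members was -0.04 and that over genes of 50 to 100 kb was 0.03, a difference of -0.07. A change of scale shifts every log2 ratio by the same amount, so it cannot alter this difference and is no check of it. The knockout value was lower in 361 of 533 long bodies (67.7%) and 1055 of 2412 shorter ones (43.7%); scaled to open regions it was lower in 222 of 533. On each of the 19 autosomes the median over members lay below 0, from -0.07 to -0.01, with all autosomal insertions as the scale, and above 0 on all but chromosomes 1 and 15 with open regions as the scale. The difference of medians has no replicate check. It stands beside the smaller share of knockout insertions in open regions. The share of poorly placed reads was larger in the knockout library in 313 of the members (58.7%, against 46.6% of the shorter class). The difference was -0.073 with open regions left out and -0.067 with mapping quality of at least 30. Among genes with under 5% of reads with mapping quality under 10, chosen after seeing the data, it was -0.068. What causes the difference was not tested.

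The ratio varied weakly with density (Spearman correlation over members 0.23). Among the 140 members with up to 1.5 insertions per kb the summed log2 ratio was -0.04 (-0.05 to -0.03), and 93 were lower in the knockout library. Scaled to open regions this ratio was 0.02. Among members with 1.5 to 2 wild-type and knockout insertions per kb on average, the summed log2 ratio was -0.08 (-0.09 to -0.07), and 102 of 122 were lower in the knockout library; scaled to open regions it was -0.02. Among those with over 6 per kb it was 0.02 (0.01 to 0.03), with 14 of 38 lower. At matched density the long bodies lay below the shorter ones in each of 6 groups, for instance -0.08 against -0.01 (-0.04 to 0.01) at 1.5 to 2 per kb and 0.02 against 0.03 (0.02 to 0.04) at over 6 per kb. The gap between length classes was thus smallest in the densest bodies, where the intervals overlap. By length the summed ratio was 0.00 at 200 to 300 kb, -0.02 at 300 to 500 kb, -0.04 at 500 to 1000 kb and -0.05 over 1000 kb; with open regions as the scale each of these lies above 0.

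**Figure D5:**
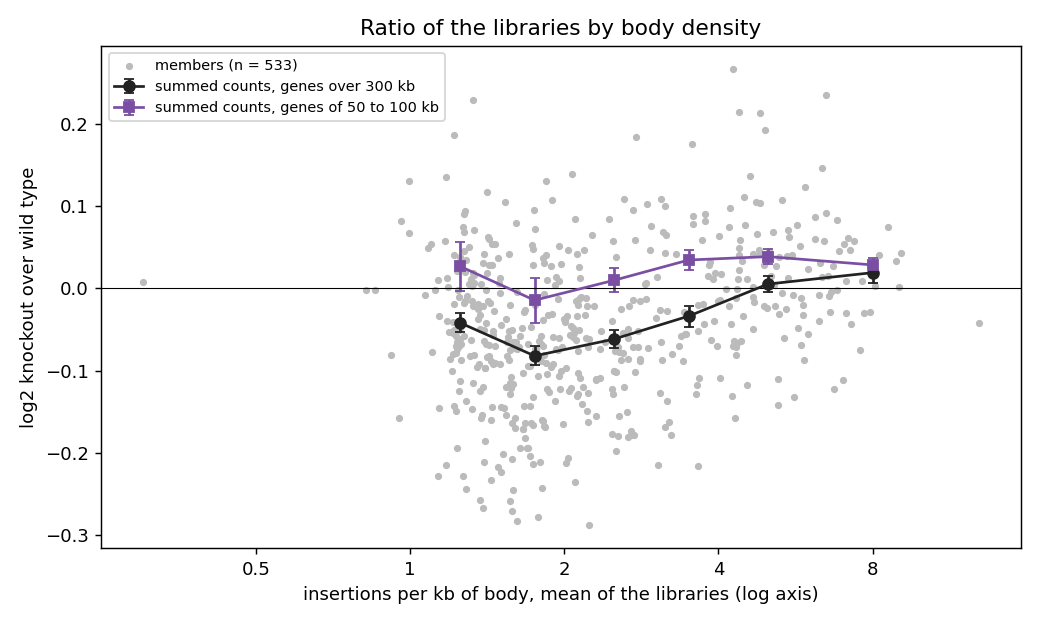
Log2 ratio of knockout over wild type, scaled to all autosomal insertions (vertical axis), against insertions per kb of body averaged over the libraries (log axis). Grey points are the 533 members. Black circles are summed counts of members and purple squares those of genes of 50 to 100 kb in 6 density groups. Circles and squares carry exact 95% counting intervals. The circles lie below the squares, at -0.04 up to 1.5 per kb, -0.08 at 1.5 to 2 per kb and 0.02 at over 6 per kb. Scaling to open regions would raise each value by 0.06.

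Few single genes stood apart. Bodies were singled out by size, in place of a test, when they differed by 1.2-fold or more and had 500 insertions or more in sum. Over all 3790 bodies with that many insertions, 1.37% were higher and 1.29% were lower in the knockout library. Of 532 members, 1 was higher and 5 were lower (0.188% and 0.940%), both below the background shares. Members hold more insertions (median 2332 summed) than bodies of 50 to 100 kb that passed (736), which leaves less counting scatter, and of 577 bodies of any length with at least 2000 insertions, 1 was higher (0.173%) and 0 lower. Scaled to open regions, 5 members were higher and 0 lower, against 4.46% and 0.422% of the 3790 bodies. The log2 ratios of all members had an SD of 0.09, against 0.06 from counting in a typical member, and 101 of 533 intervals lay wholly below 0 and 18 wholly above, where over all 16859 bodies, most with fewer insertions, the shares were 2.82% and 3.33%. Scaled to open regions the balance turned, to 28 below and 88 above, against 1.21% and 7.52% of all bodies.

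The 5 lower members were Pid1, an insulin-signalling adaptor gene, with 740 wild-type and 607 knockout insertions (log2 ratio -0.29, -0.45 to -0.13), Thsd7a, a thrombospondin-domain gene, with 771 and 635 (-0.28, -0.44 to -0.13), Kcnq3, a subunit gene of the M-current channel, with 581 and 480 (-0.28, -0.46 to -0.10), Cdk14, a cyclin-dependent kinase gene, with 994 and 825 (-0.27, -0.41 to -0.14), and Fstl5, a follistatin-like gene, with 960 and 799 (-0.27, -0.40 to -0.13). Their densities ran from 1.26 to 2.45 insertions per kb over both libraries. The higher member was Vwa8, an ATPase gene of mitochondria, with 1361 and 1640 (0.27, 0.16 to 0.37). Cdh23 followed with 2330 and 2747 (0.24, 0.15 to 0.32), Agmo, an ether lipid monooxygenase gene, with 413 and 485 (0.23, 0.04 to 0.42), Patj, a polarity gene, with 1309 and 1521 (0.21, 0.11 to 0.32), and Dis3l2, an exoribonuclease gene, with 1545 and 1794 (0.21, 0.11 to 0.31). In Vwa8 and Cdh23 the difference lay outside open regions, which held 1.65% to 4.25% of their insertions. These genes are extremes picked by their size.

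By function, 11 of 12 lists had a median log2 ratio below 0 with all autosomal insertions as the scale and 4 of 12 with open regions as the scale, so the direction of most lists rests on that choice. The lowest medians were those of the channels and of the signalling genes (-0.07 each), where 21 of 30 and 20 of 26 were lower, beside 361 of all 533 members; scaled to open regions both medians were -0.01. The summed ratio of the channels was -0.04 (-0.06 to -0.01), near that of all long bodies, and 0.03 scaled to open regions. Among the adhesion genes, 33 of 40 were lower (median -0.06; 0.00 scaled to open regions), Lsamp among them with 2885 wild-type and 2527 knockout insertions (-0.19, -0.27 to -0.12). The cadherins had a median of -0.05 but a summed ratio of 0.01 (-0.02 to 0.04), and the signs thus differ. The Usher and photoreceptor-disease genes were the list with a median above 0 (0.03, with 3 of 8 lower); their summed ratio of 0.03 (0.01 to 0.06) was 0.01 (-0.02 to 0.04) without Cdh23 and Myo3a.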

How the data were processed

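ATAC-seq libraries of 1 wild-type and 1 Gabra3 knockout retina sample were deposited as lists of aligned reads. The score in the deposited files is the mapping quality of each read, with no normalization. Per the submitters' processing notes reads were processed with Trimmomatic 0.33, BWA and bedtools 2.23.0 on GRCm38 (mm10). The BWA version, what each tool did and whether duplicates were removed is not stated in the sources used.

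Reads with mapping quality of at least 10 were counted once per position and strand at their 5′ end, shifted by 4 bp (plus strand) or -5 bp (minus strand) to the insertion site. Repeats made up 11.0% of wild-type and 9.41% of knockout reads. To find open regions, the libraries were summed and read in 200 bp windows (step 50 bp). A window passed at a Poisson p under 1e-05 against the genome mean or, if higher, the mean of the 10000 bp around it, and windows within 150 bp were merged. Gene spans and starts came from RefSeq tables of GRCm38. Bodies were counted for the 16859 genes over 4 kb. A pseudocount of 0.5 was added for log2 ratios, which were scaled to autosomal insertions. Region calling, on an even background, and the intervals of log2 ratios were tested on simulated data. Python 3.11.15, numpy 2.4.6, pandas 2.3.3 and scipy 1.17.1 were used.

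The members, the lists and the rule for named genes were chosen with earlier results of these data known. The rule took the 6 longest, the 6 densest and the 6 sparsest members, the 5 highest and 5 lowest ratios, the densest and sparsest member of each list and the 4 with most open regions per Mb; the other list members, inside starts, single regions and gaps named in the text were picked after their values were seen. A count test, GC correction and coordinates of exons were not used here. Values of 1 list member are not reported here.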

Additional observations from a re-analysis of the deposited data

How the results depend on the processing

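No paired analysis was possible because each genotype has 1 library, and no replicate could be left out. Long over 50 to 100 kb bodies, 0.565 in the wild-type and 0.532 in the knockout library, stayed below 1 under each alternative run: 0.568 and 0.527 with every read counted, 0.572 (wild type) with mapping quality of at least 30, 0.580 and 0.537 with every mapping quality, 0.663 and 0.619 for genes over 200 kb, 0.487 and 0.453 for genes over 500 kb, 0.589 and 0.557 against genes of 100 to 200 kb, 0.548 and 0.513 against genes of 20 to 50 kb, 0.600 and 0.559 with 10 kb left out at each end, 0.581 and 0.543 without open regions, and 0.570 and 0.539 without other genes in the body. Of the alternatives chosen after seeing the data, under 5% of reads with mapping quality under 10 gave 0.690 and 0.646, and leaving out overlapping members gave 0.570 (wild type).

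The summed log2 ratio of -0.03 turned to 0.031 when scaled to open regions, and was -0.060 when scaled to bodies of 50 to 100 kb, -0.025 without open regions and -0.12 in open regions alone. The difference of medians, -0.07, was -0.085 in open regions alone and -0.065 without chromosomes 1 and 2 (chosen after seeing the data). Counts of 1 higher and 5 lower member became 0 and 0 at 1.5-fold (0 and 0 of all 3790 bodies), 11 and 78 at 1.1-fold (441 and 413 of 3790), 1 and 0 of 302 members with at least 2000 insertions (1 and 0 of all 577), 5 and 0 scaled to open regions (169 and 16 of 3790), 0 and 11 scaled to bodies of 50 to 100 kb (25 and 84 of 3790), and, chosen after seeing the data, 0 and 2 with every mapping quality (51 and 50 of 3903). The cause was not tested. Open regions per Mb, 0.530 of the shorter class, were 0.461 of it at p under 1e-07 and 0.266 for regions of at least 50 insertions. The start over the middle, 1.13 and 1.14, was 1.12 and 1.13 with orientation from the busier end and 1.07 and 1.08 without open regions. The coefficient of variation, 34.9%, was 17.8% in windows of 50 kb, which hold more insertions each, and 30.1% without open regions. Leaving out Myo3a, chosen after seeing the data, gave 1.13 and 1.14 for the start and 34.8% for the variation.

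The design limits every ratio to a comparison of 2 libraries. At a typical member the counting error is 0.06 on the log2 scale, so a difference of the size seen between length classes was not detectable in a single gene of that count.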
